A study of Mus musculus with 5 samples.

Results

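The interferon regulatory factor (IRF) family was followed in dendritic cells of the mouse thymus before and after irradiation. Its members here were the 8 genes Irf1, Irf2, Irf3, Irf4, Irf5, Irf7, Irf8 and Irf9, taken by symbol from a table of 18051 genes. All 8 passed the filter on low counts, as did 12046 genes in all. There were 2 libraries from untreated C57BL/6J mice and 3 from C57BL/6J mice that had received total body irradiation (TBI) 4 days earlier, with 7227000 to 8428589 counts each. All mice were 6 to 8 weeks old, thymi were digested and pooled, and dendritic cells were sorted for CD45, CD11c and MHC class II. The labels carry no statement that replicates came from separate pools, so p-values measure only the spread between these libraries. They do not give the radiation dose. On the second principal component of all tested genes, TBI replicate 1 (score -48.8) was far from TBI replicates 2 (34.5) and 3 (21.6), and values without it are given where they moved a result by over 1.5 times or changed its call.

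IRFs share a DNA-binding domain with a row of conserved tryptophans and bind GAAA-containing sites. IRF3 and IRF7 are switched on by phosphorylation downstream of nucleic acid sensors and induce type I interferon, while IRF9 joins STAT proteins in the complex that answers it. IRF8 and IRF4 bind DNA weakly alone and act with partners such as PU.1 and BATF3, and dendritic cell subsets are known to depend on them: type 1 and plasmacytoid cells on IRF8, type 2 cells on IRF4. IRF1 is induced by interferon gamma, IRF2 can oppose it at shared sites, and IRF5 drives inflammatory cytokine genes in macrophages.

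Of the 8 members, 1 fell (Irf8), 1 rose (Irf2) and 6 did not pass an adjusted p of 0.05. That is 2 of 8, against 23.1% of all tested genes. Lower calls made up 9.79% of all tested genes and higher calls 13.3%. The median log2 fold change, TBI minus untreated, was -0.26 over the 8 members and -0.0054 over all tested genes. In 5 members the groups did not overlap, against 56.1% of all tested genes. Every TBI library was lower in 4 of them, against 28.3% of all tested genes, and higher in 1, against 27.8%.

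The stretches upstream of Irf8, Irf2 and Irf1 are shown because Irf8 and Irf2 changed, Irf1 shares sites with IRF2, and these were the members whose promoter windows held a searched motif. Sequences are from RefSeq, build GRCm38.p6, read 5′ to 3′ up to the base before the earlier of the RefSeq and GENCODE starts. Capitals mark matches on either strand to 4 motifs. These were the STAT site (GAS), TTCNNNGAA, and the interferon-stimulated response element (ISRE), made of GAAA, any 2 bases and GAAA. The others were the composite ETS-IRF element, made of GGAA, any 2 bases and GAAA, and a narrow form of the NF-kB element. That form is GGGA, any base and TTTCC. Other forms of the NF-kB element were not searched, so lower case does not mean that a stretch lacks them.
Irf8 (chr8:120736108-120736357, plus strand): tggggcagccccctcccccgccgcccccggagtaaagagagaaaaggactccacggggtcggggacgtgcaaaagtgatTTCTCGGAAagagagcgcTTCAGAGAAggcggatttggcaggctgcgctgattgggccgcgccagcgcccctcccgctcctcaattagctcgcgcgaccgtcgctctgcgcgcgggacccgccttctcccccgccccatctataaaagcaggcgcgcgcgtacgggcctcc
Irf2 (chr8:46739495-46739731, plus strand): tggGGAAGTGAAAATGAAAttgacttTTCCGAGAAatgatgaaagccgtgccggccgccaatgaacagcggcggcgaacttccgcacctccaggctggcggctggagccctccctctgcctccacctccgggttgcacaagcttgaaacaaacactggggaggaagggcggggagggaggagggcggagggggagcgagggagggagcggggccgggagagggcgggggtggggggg
Irf1 (chr11:53769764-53770013, plus strand): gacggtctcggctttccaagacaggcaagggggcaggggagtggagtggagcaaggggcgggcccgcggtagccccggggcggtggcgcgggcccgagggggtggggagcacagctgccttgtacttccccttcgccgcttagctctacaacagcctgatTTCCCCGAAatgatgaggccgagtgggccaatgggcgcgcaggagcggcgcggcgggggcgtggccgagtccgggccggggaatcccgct

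The Irf8 stretch held 2 GAS matches, TTCTCGGAA and TTCAGAGAA, beginning 171 and 153 bases before the start. Irf2 had the ETS-IRF match GGAAGTGAAA, which overlaps its ISRE match GAAAATGAAA, and the GAS match TTCCGAGAA 224 bases before the RefSeq start. Irf1 had a single GAS match, TTCCCCGAA, 90 bases before the start. RefSeq windows ran from 250 bases before to 50 after a start. A GAS match occurred in 8.3% of 32851 windows, an ISRE match in 3.44% and an ETS-IRF match in 2.72%. The narrow NF-kB form matched in 0.411%. No searched motif was in the windows of Irf3, Irf4, Irf5, Irf7 or Irf9. A match is a run of letters and was not tested for binding.

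Irf8, on chromosome 8 (120736358 to 120756694 in GRCm38), encodes a lineage factor of both type 1 and plasmacytoid dendritic cells. It had 1681 and 1756 CPM (counts relative to a TMM-scaled library size) in the untreated libraries and 360.4, 452 and 465 CPM in the TBI libraries. Every TBI library lay far below both untreated ones, and replicates within a group were close. Its log2 fold change was -2.01 ± 0.14 (SE; edgeR adjusted p = 2.88e-05), or 4.03-fold lower, and it ranked as the 392nd largest fall of 12046 tested genes. Irf8 was called with every library left out in turn and in every other alternative run, with log2 fold changes from -2.24 to -1.91. In bulk RNA, fewer cells of a type and less RNA per cell cannot be told apart.

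Most marker genes of the cell types that depend on Irf8 moved with it. The marker lists were chosen with earlier results of these data known, so their direction is not independent evidence. Counts of these and later marker lists stand against 9.79% of all tested genes called lower and 13.3% called higher. All 7 plasmacytoid markers fell, and their summed level went from 3138 to 3239 CPM in untreated to 431 to 526 CPM in TBI libraries. Of 6 type 1 markers 5 fell, and the summed level went from 1781 to 1836 CPM to 578 to 685 CPM. All 12 macrophage markers rose, with sums of 3633 to 4402 CPM in untreated and 37420 to 45240 CPM in TBI libraries. No defining marker of these lists was at 0 in either group. The part of these marker shifts in the Irf8 result was not tested.

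Irf2, on chromosome 8 (46739732 to 46847458), encodes a factor first described as a repressor at interferon-responsive promoters. It had 51.3 and 41.3 CPM in untreated libraries and 93.9, 91.4 and 77.2 CPM in TBI libraries. The groups did not overlap, and the lowest TBI library was well above the higher untreated one. For Irf2 this gave a log2 fold change of 0.92 ± 0.18 (standard error; edgeR adjusted p = 0.00691), or 1.89-fold higher. Without untreated replicate 2, the lower of the untreated libraries, it was 0.77 and did not pass (edgeR adjusted p = 0.123). The part of the macrophage marker rise in the Irf2 result was not tested either.

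**Figure D1:**
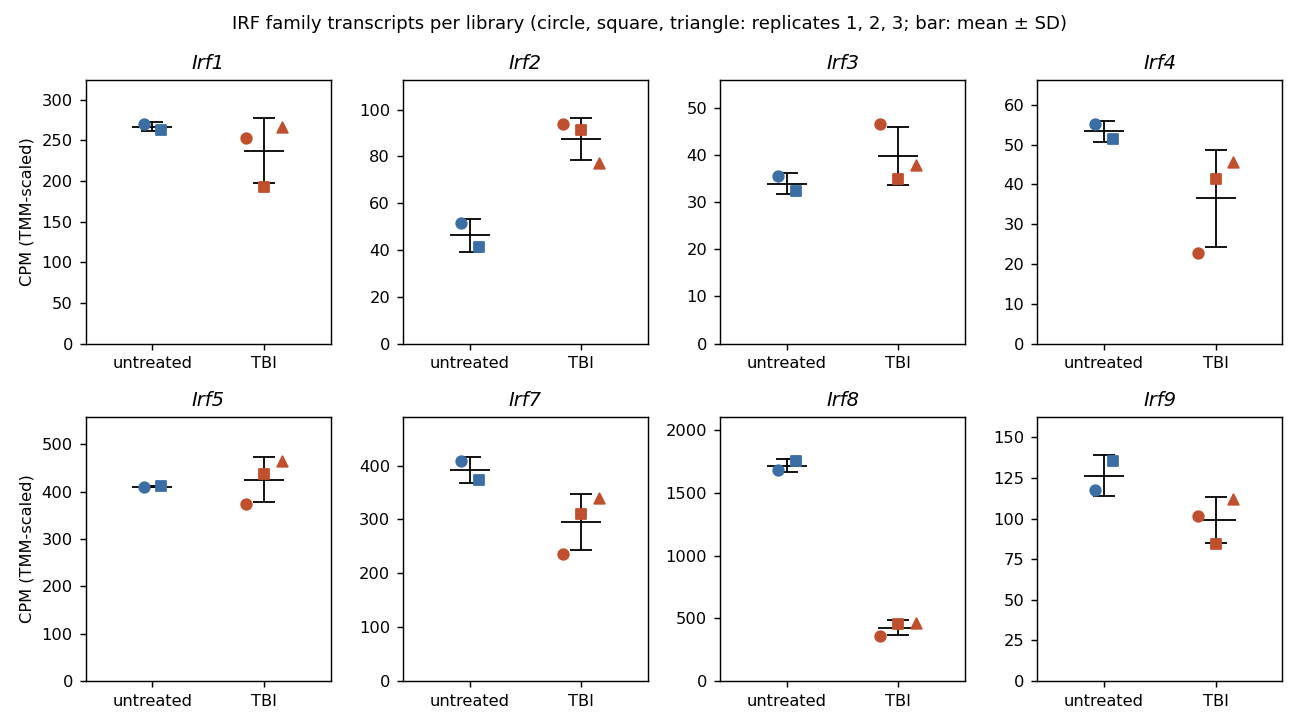
TMM-scaled CPM (y axis from 0) of each of the 8 members in each library, with 1 panel per gene, untreated in blue and TBI in orange, marker shapes for replicates and bars for mean ± SD. Irf8 is lower in all 3 TBI libraries (360.4 to 465 CPM against 1681 and 1756) and Irf2 higher (77.2 to 93.9 against 41.3 and 51.3), while Irf1, Irf3 and Irf5 overlap between groups.

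Irf4, on chromosome 13 (30749226 to 30766976), encodes the closest relative of IRF8 and is used by type 2 dendritic cells, plasma cells and activated T cells. Its CPM was 55.3 and 51.5 in untreated and 22.7, 41.3 and 45.7 in TBI libraries. All TBI libraries were lower, but TBI replicate 1 was far below the other two. A log2 fold change of -0.54 ± 0.28 (standard error; edgeR adjusted p = 0.206) did not pass, with a 95% interval of -1.19 to 0.10. Without TBI replicate 1 it was -0.30 (edgeR adjusted p = 0.132). That library also had the lowest Irf5, Irf7 and Irf8 and the highest Irf2 and Irf3 of the TBI group. Type 2 dendritic cell markers summed to 1007 to 1126 CPM in untreated and 2816 to 3373 CPM in TBI libraries, with 4 of 5 tested markers higher. These markers include Itgam, which macrophages express, and the part of the macrophage marker rise in the sum was not tested. B cells also carry Irf4. B cell markers summed to 70.4 to 92.7 CPM in untreated and 248.9 to 386 CPM in TBI libraries, 5 of the 5 tested B cell markers rose, Pax5 was at 0 in both untreated libraries, and the part of these cells in the Irf4 values was not tested.

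Irf7, Irf9 and Irf1 are the members that interferon itself induces. Irf7, on chromosome 7 (141262706 to 141266481), encodes the main driver of interferon alpha in plasmacytoid cells. It had 409 and 374 CPM in untreated and 237, 309.5 and 339 CPM in TBI libraries. All TBI libraries were below the untreated ones, with replicate 1 the lowest. Its log2 fold change, -0.41 ± 0.17 (standard error; edgeR adjusted p = 0.119), did not pass, with a 95% interval of -0.79 to -0.025. Without TBI replicate 1 it was -0.27 (edgeR adjusted p = 0.0594).

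Irf9, on chromosome 14 (55603571 to 55610030), encodes the DNA-binding subunit of that STAT complex. It had 117 and 135 CPM in untreated and 102, 84.1 and 112 CPM in TBI libraries, with the highest TBI library just under the lower untreated one. Irf9 had a log2 fold change of -0.35 ± 0.16 (standard error; edgeR adjusted p = 0.166). Under scaling by library size alone, which shifts the median of all tested genes from -0.0054 to -0.23, Irf7 (-0.63, edgeR adjusted p = 0.0322) and Irf9 (-0.57, edgeR adjusted p = 0.0367) passed. Of the exon bases of Irf9, 3.97% are shared with Rnf31 on the same strand.

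Irf1, on chromosome 11 (53770014 to 53778374), had 270.3 and 262 CPM in untreated and 253, 192 and 267 CPM in TBI libraries. One TBI library, replicate 2, was low and the others lay at or near the untreated level. The log2 fold change was -0.17 ± 0.16 (SE; edgeR adjusted p = 0.503), with a 95% interval of -0.54 to 0.20. Without TBI replicate 2 it was -0.037 and without TBI replicate 3 -0.25.

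Irf3 and Irf5 act downstream of sensors. Irf3, on chromosome 7 (44997648 to 45002848), is made constitutively and encodes the factor that starts interferon beta production. It had 35.5 and 32.4 CPM in untreated and 46.7, 34.9 and 37.9 CPM in TBI libraries, where replicate 1 was high and the groups overlapped. The log2 fold change was 0.23 ± 0.20 (SE; edgeR adjusted p = 0.456), with a 95% interval of -0.23 to 0.69. Without TBI replicate 1 it was 0.10 (edgeR adjusted p = 0.666). Irf5, on chromosome 6 (29526625 to 29541871), had 409 and 411 CPM in untreated and 373, 438 and 465 CPM in TBI libraries. TBI libraries lay on both sides of the untreated pair. Irf5 had a log2 fold change of 0.052 ± 0.13 (standard error; edgeR adjusted p = 0.817), and its 95% interval of -0.26 to 0.36 spans 0. Without TBI replicate 1 it was 0.14, without TBI replicate 3 -0.010 and by library size alone -0.17. Of the exon bases of Irf5, 9.48% are shared with Tnpo3 on the opposite strand, and 3.0% of those of Irf1 with Gm17334. The strand setting of the counting is not given in the sources used here.

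**Figure D2:**
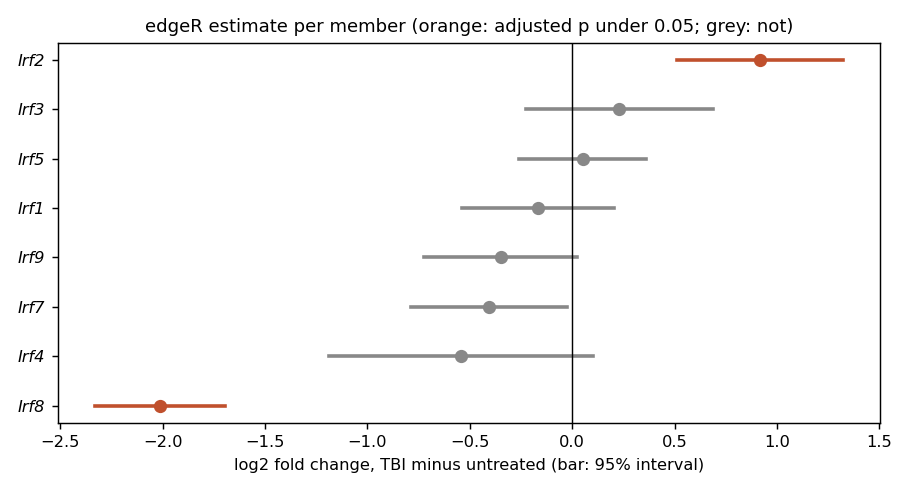
Log2 fold change of each member (x axis, TBI minus untreated) with its 95% interval from the edgeR fit across all genes, in orange where the adjusted p was under 0.05 and in grey elsewhere. The intervals of Irf8 (-2.33 to -1.69) and Irf2 (0.51 to 1.32) are the ones marked as passing, and the interval of Irf7 (-0.79 to -0.025) lies just below 0 although its adjusted p was 0.119.

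Levels of different members were compared as CPM per kb of exon. In untreated cells Irf8 was highest at 500.2 ± 15.5 CPM per kb (SD, n = 2), followed by Irf7 at 163.5 ± 10.2 and Irf5 at 155.0 ± 0.449. Irf1 stood at 79.8 ± 1.65, Irf9 at 40.7 ± 4.11, Irf2 at 18.6 ± 2.83, Irf3 at 15.5 ± 1.03 and Irf4 at 11.2 ± 0.569 CPM per kb. Neighbours in this order did not overlap between the 2 libraries, but some were close: the lowest Irf7 value was 156.3 and the highest Irf5 value 155.3, and the lowest Irf2 value was 16.6 and the highest Irf3 value 16.2 CPM per kb.

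After TBI the order at the top changed. Irf5 was highest at 160.6 ± 17.8 CPM per kb (SD, n = 3), ahead of Irf8 at 124 ± 16.7 and Irf7 at 123.3 ± 22, and Irf8 and Irf7 overlapped. Irf1 followed at 71.1 ± 11.9, Irf2 at 35.1 ± 3.62, Irf9 at 32 ± 4.55, Irf3 at 18.2 ± 2.79 and Irf4 at 7.67 ± 2.56 CPM per kb, with Irf2 and Irf9 overlapping. Irf8 supplied 49.8% and 51.8% of the summed level of the family in untreated libraries and 20.3%, 23.0% and 21.6% in TBI libraries. The sum over the 8 members went from 984.6 ± 3.75 to 572 ± 54.8 CPM per kb, and the sum without Irf8 was 476.1 and 492.7 in untreated and 412.1, 440.6 and 491.1 in TBI libraries, which overlap. By coding length in place of exon length, Irf8 was ahead of Irf5, Irf1 and Irf7 in that order after TBI, and Irf3 was below Irf4 and Irf5 just below Irf1 in untreated cells, so these places depend on the length used.

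**Figure D3:**
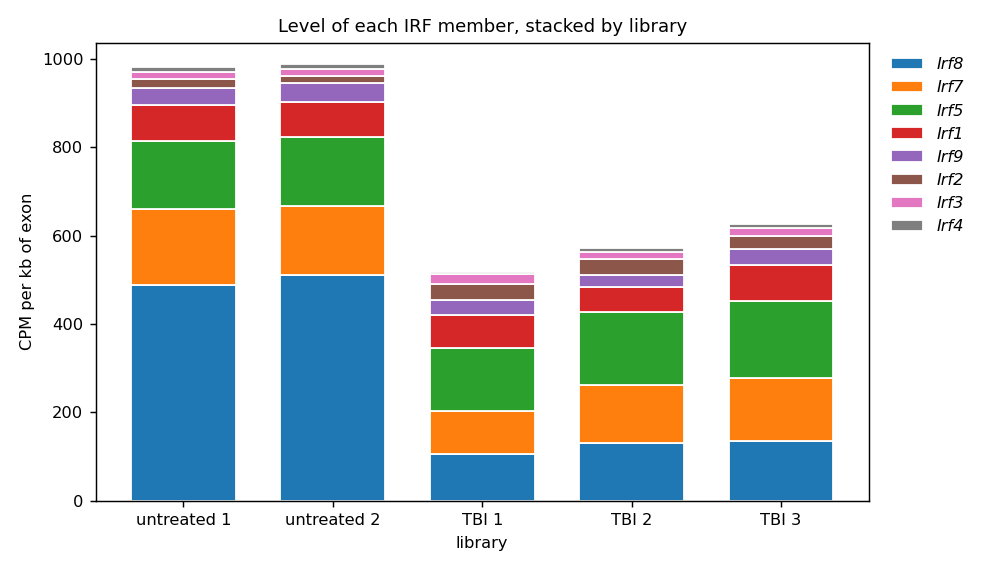
CPM per kb of exon (y axis from 0) of the 8 members, stacked for each library on the x axis with 1 colour per gene. The Irf8 segment (blue) shrinks from 489 and 511 to between 105 and 136 CPM per kb, while the rest of each bar stays between 412 and 493.

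Ratios of counts within a library do not depend on library scaling. Irf8 had 6.22 and 6.69 counts per Irf1 count in untreated and 1.43, 2.36 and 1.75 in TBI libraries. Against Irf4, its closest relative, Irf8 had 30.4 and 34.1 counts per count in untreated and 15.9, 11.0 and 10.2 in TBI libraries, so the ratio was lower in every TBI library. Irf5 had 0.244 and 0.234 counts per Irf8 count in untreated and 1.04, 0.968 and 0.999 in TBI libraries. The log2 of that ratio had an SD of 0.048 over the TBI libraries, TBI replicate 1 included, and its group means differed by 2.07. Irf7 to Irf9 ranged over 2.76 to 3.48 in untreated and 2.33 to 3.68 in TBI libraries and overlapped. With 2 against 3 libraries these ratios are given with no test.

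**Figure D4:**
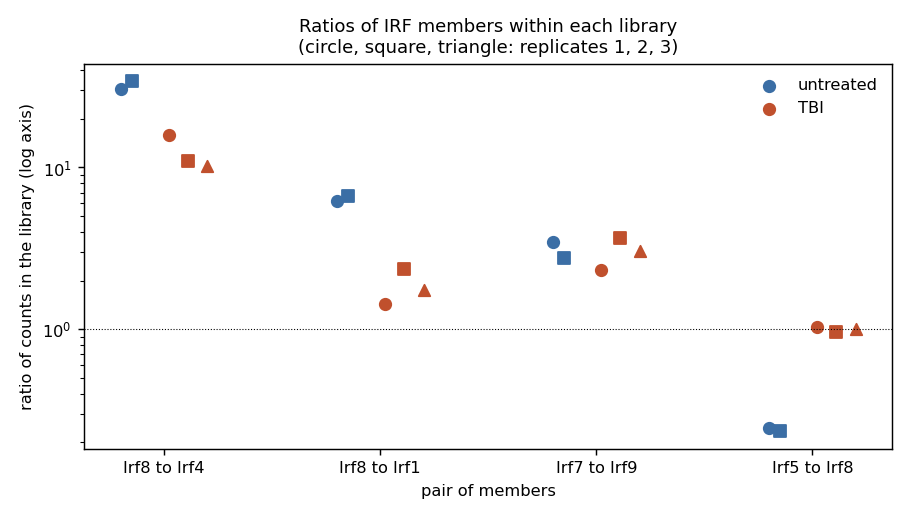
Ratio of counts of 2 members within each library (y axis, log scale) for 4 pairs on the x axis, untreated in blue and TBI in orange, with 1 point per library and a dotted line at 1. The Irf5 to Irf8 ratio lies at 0.234 to 0.244 in untreated and 0.968 to 1.04 in TBI libraries, and Irf7 to Irf9 overlaps between groups.

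Genes of IRF2-binding proteins, which are not members, gave 1 call of 3. Irf2bp1, which encodes a co-repressor that binds IRF2, fell from 47.9 and 44.4 to 23.8, 25.95 and 30.8 CPM (log2 fold change -0.78 ± 0.19, edgeR adjusted p = 0.0210), opposite in direction to Irf2. It did not pass without untreated replicate 1 (edgeR adjusted p = 0.209), untreated replicate 2 (0.146) or TBI replicate 2 (0.0613). Irf2bp2 (-0.066 ± 0.13) did not pass. Irf2bpl (0.31 ± 0.27) did not pass either, but did without TBI replicate 1 (0.54, edgeR adjusted p = 0.0188).

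Of 21 interferon ligand genes, products of IRF3 and IRF7 activity among them, 7 were in the table and 1 (Ifng) passed the filter on low counts. The other 14 were not analysed here. Ifnb1 had 0 and 4 counts in untreated and 0, 0 and 1 in TBI libraries, and Ifna1 had 0 counts in all 5. Ifnl2 had 32 and 3 and Ifnl3 had 48 and 0 counts in untreated libraries, and both had 0 in every TBI library. These lambda interferon genes are near-identical copies, so their counts are uncertain singly, and nearly all came from untreated replicate 1. Ifng, the ligand that induces Irf1, had 11 and 20 counts in untreated and 31, 26 and 107 in TBI libraries (1.89 ± 0.72, edgeR adjusted p = 0.0951), and it passed without TBI replicate 1 (edgeR adjusted p = 0.0465) and by DESeq2 (adjusted p = 0.0481). Most TBI counts were in TBI replicate 3, without which the Ifng value was 0.999. Natural killer cells are a source of it, and their markers summed to 30.7 to 32.6 CPM in untreated and 672 to 789 CPM in TBI libraries, whose part was not tested.

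Of 12 receptor, JAK and STAT genes, 2 were higher, 5 lower and 5 not called, with a median log2 fold change of -0.40 (-0.26 without TBI replicate 1, -0.62 by library size alone). Counts of this and the following lists stand against 13.3% of all tested genes called higher and 9.79% called lower. Stat2, a partner of IRF9, fell from 72.5 ± 9.10 to 39.9 ± 11.9 CPM (-0.86 ± 0.26, edgeR adjusted p = 0.0435) and did not pass without TBI replicate 3 (0.0876) or either untreated library. Jak2, a kinase of the interferon gamma receptor, fell by 0.92 ± 0.15 on the log2 scale. Ifnlr1, the specific chain of the lambda interferon receptor, had 68 counts over the untreated libraries and 1 over the TBI libraries, a ratio of 95.4 with a 95% exact binomial interval of 16.6 to 3820 that covers counting error only. Il10rb, the other chain of that receptor, rose by 0.92 ± 0.16 and Ifngr1 by 0.66 ± 0.12 (0.44 by library size alone). Ifngr1 did not pass without untreated replicate 1 (edgeR adjusted p = 0.0799), nor Il10rb without untreated replicate 2 (0.0657). Lower calls in this list numbered 2 without untreated replicate 1 and 3 without untreated replicate 2, higher calls 1 in each of these, and higher calls 4 without TBI replicate 1.

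Adaptors and kinases that carry sensor signals to IRF3, IRF5 and IRF7 gave 6 higher and 1 lower of 21. The shares over all tested genes were 13.3% higher and 9.79% lower. The median of this list was 0.36 (0.094 without TBI replicate 3, 0.14 by library size alone). Ikbke, an IRF3 and IRF7 kinase, had 17.5 and 14.3 CPM in untreated and 39.7, 44.1 and 48.5 CPM in TBI libraries (1.47 ± 0.21, edgeR adjusted p = 0.00150). Its relative Tbk1 (0.36 ± 0.27) was not called, except without TBI replicate 1 (0.56, edgeR adjusted p = 0.0360). Ticam2, an adaptor of TLR4, rose by 1.97 ± 0.25, Myd88 by 0.64 ± 0.14 (0.41 by library size alone) and Unc93b1, the chaperone of endosomal receptors, by 0.54 ± 0.11. The lower gene was 5430427O19Rik (-0.75 ± 0.17), known as TASL, the adaptor through which IRF5 is activated, and it did not pass without untreated replicate 1 (edgeR adjusted p = 0.134) or 2 (0.165). Myd88 and Unc93b1 did not pass without untreated replicate 1 (edgeR adjusted p = 0.127 and 0.128) or untreated replicate 2 (0.132 and 0.0870), nor Unc93b1 by library size alone (0.0720). With either untreated library left out 2 genes of the list were higher and 0 lower. By library size alone 3 were higher and 3 lower, and 2 were lower without TBI replicate 1, by upper quartile scaling and by DESeq2.

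DNA-binding partners of IRF4 and IRF8 moved both ways, with 4 higher, 4 lower and 6 not called of 14 and a median of 0.063 that ranged from -0.16 by library size alone to 0.14 without untreated replicate 2 (0.13 without TBI replicate 1, 0.0057 without TBI replicate 3). Spi1, which encodes PU.1, was not called (329 ± 8.68 to 367 ± 42.5 CPM). Spib, its relative in plasmacytoid and B cells, fell from 152 and 182 to 7.80, 23.2 and 15.5 CPM (-3.42 ± 0.35, edgeR adjusted p = 2.57e-04), and Tcf4, the plasmacytoid lineage factor, fell by 1.84 ± 0.16 on the log2 scale. Batf rose from 53.7 and 52.6 to 136, 116 and 99.9 CPM (1.14 ± 0.17) and Junb by 1.23 ± 0.13. Batf3, the partner that type 1 cells need, had a log2 fold change of 0.69 ± 0.27 and did not pass (edgeR adjusted p = 0.107), so its estimate had the opposite sign to that of Irf8. Higher calls numbered 2 with either untreated library left out, and lower calls 2 without untreated replicate 1.

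Among 18 negative regulators, 3 were higher and 4 lower, with a median of 0.0068 whose sign depended on the setting, from -0.22 by library size alone to 0.063 without TBI replicate 1. It was also negative without untreated replicate 2 (-0.027) or TBI replicate 3 (-0.089). Socs3 rose from 197 and 163 to 543, 548 and 626 CPM (1.67 ± 0.15, edgeR adjusted p = 1.09e-04) and Irak3, which restrains MYD88 signalling, by 1.48 ± 0.23. Usp18, which shuts off the type I interferon receptor, fell by 0.83 ± 0.15 on the log2 scale, and did not pass without untreated replicate 1 (edgeR adjusted p = 0.106). Sigirr rose by 0.90 ± 0.22, and did not pass without untreated replicate 1 (0.151), untreated replicate 2 (0.169) or by library size alone (0.0522). Lower calls numbered 0 without untreated replicate 1, 1 without untreated replicate 2, 2 without TBI replicate 2 or 3 and 7 by library size alone.

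Interferon-stimulated genes, many of them bound by the IRF9 complex, gave 14 higher, 5 lower and 17 not called of 36, with a median of 0.56 (0.34 by library size alone). This is 14 of 36 against 13.3% of all tested genes called higher and 5 of 36 against 9.79% called lower. Ifitm3, an antiviral membrane protein, rose from 83.4 and 85.5 to 1187, 1024 and 986 CPM (3.66 ± 0.15, edgeR adjusted p = 3.53e-06), Rtp4 by 2.07 ± 0.17 and the chemokine Cxcl10 by 1.79 ± 0.17. Ifi44 fell from 47.3 and 48.0 to 17.3, 19.7 and 18.4 CPM (-1.36 ± 0.18). Isg15 (0.052 ± 0.20) and Mx1 (0.040 ± 0.27), other genes of this kind, were not called. Among the lower genes, Stat2 and Usp18 are also counted above, and Bst2 is a plasmacytoid marker. Lower calls numbered 2 without untreated replicate 1 and higher calls 7 without untreated replicate 2. Macrophages carry several of these genes, and the part of the macrophage marker rise in their values was not tested.

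Genes of the interferon gamma program, linked to IRF1, were split with 8 higher, 8 lower and 11 not called of 27 tested, and a median of 0.077 (-0.15 by library size alone, 0.033 by upper quartile scaling, -0.0079 with no filter on low counts). The guanylate-binding protein Gbp3 rose from 19 and 20.4 to 117, 112 and 109 CPM (2.52 ± 0.16, edgeR adjusted p = 2.18e-05) and Gbp7 by 2.19 ± 0.18. Others of the family differed: Gbp4 (-0.69 ± 0.31) and Gbp5 (0.61 ± 0.44) were not called. Gbp5 was called without TBI replicate 1 (0.92, edgeR adjusted p = 0.0485). Reads of this family can be shared between similar copies. Ciita, the MHC class II transactivator, fell from 211 and 201 to 52.7, 76.1 and 77.3 CPM (-1.58 ± 0.18, edgeR adjusted p = 4.61e-04), and the immunoproteasome subunit Psmb9 by 1.15 ± 0.13 on the log2 scale. Lower calls numbered 3 with either untreated library left out and 5 without TBI replicate 2, and higher calls 4 without untreated replicate 2.

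Gene lists of the subsets that use IRF8 fell with it. These lists were chosen with results of these libraries known, so their direction is not independent evidence. They also hold every type 1 marker counted above and every plasmacytoid marker but Bst2. The marker counts and the counts here therefore rest largely on the same genes. Batf3, Spib and Tcf4 were counted among the DNA-binding partners too. Of 14 type 1 genes 12 were lower, 0 higher and 2 not called, with a median of -2.03. Xcr1, a chemokine receptor, went from 383 and 352 to 50.9, 57.5 and 46.0 CPM (-2.84 ± 0.14, edgeR adjusted p = 8.06e-06), the adhesion molecule Cadm1 had -2.74 ± 0.20, Gcsam -2.37 ± 0.16 and the thioesterase Ppt1 -1.99 ± 0.14, while Batf3 and Cd24a were not called. Of 12 plasmacytoid genes 10 were lower, 0 higher and 2 (Tlr7 and Tlr9) not called, with a median of -2.64, including Klk1 (-6.56 ± 0.22), Runx2 (-3.01 ± 0.28) and Pacsin1 (-2.60 ± 0.19).

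Lists linked to IRF4 and IRF5, which were themselves not called, moved in part. Of 15 type 2 and mature dendritic cell genes 5 were higher, 3 lower and 7 not called, with a median of 0.32 (0.67 without untreated replicate 1, 0.17 without untreated replicate 2, 0.087 by library size alone). The integrin Itgam rose by 3.11 ± 0.24 and the lectins Mgl2 and Clec10a by 2.10 ± 0.22 and 1.19 ± 0.19, while Fscn1, Ccl22 and Cd86, which rise in mature dendritic cells, were the lower ones. None of these passed without untreated replicate 1 (edgeR adjusted p = 0.0692, 0.0593 and 0.0950), and Cd86 did not without untreated replicate 2 (0.0840). The factor Klf4 rose by 0.96 ± 0.17, and did not pass without untreated replicate 1 (edgeR adjusted p = 0.0681) or 2 (0.0506). Higher calls numbered 3 without untreated replicate 2. Of 12 inflammatory cytokine genes 8 were higher, 3 lower and 1 not called, with a median of 1.02. Il6 rose from 12.1 and 10.5 to 141, 138.5 and 104 CPM (3.50 ± 0.22, edgeR adjusted p = 1.96e-05) and Ccl2 by 6.21 ± 0.24. Il12b, a cytokine subunit made by dendritic cells, fell from 118 and 51.5 to 3.90, 8.36 and 7.44 CPM (-3.68 ± 0.41), and Ccl4 fell by 1.57 ± 0.13 on the log2 scale. Higher cytokine calls numbered 4 without untreated replicate 1 and 5 without untreated replicate 2 or by library size alone. Macrophages express Itgam and most of these cytokines. The part of the macrophage marker rise in the type 2 genes and the cytokines was not tested. All tested type 2 markers counted with Irf4 above are among the 15 genes, so these counts share genes.

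**Figure D5:**
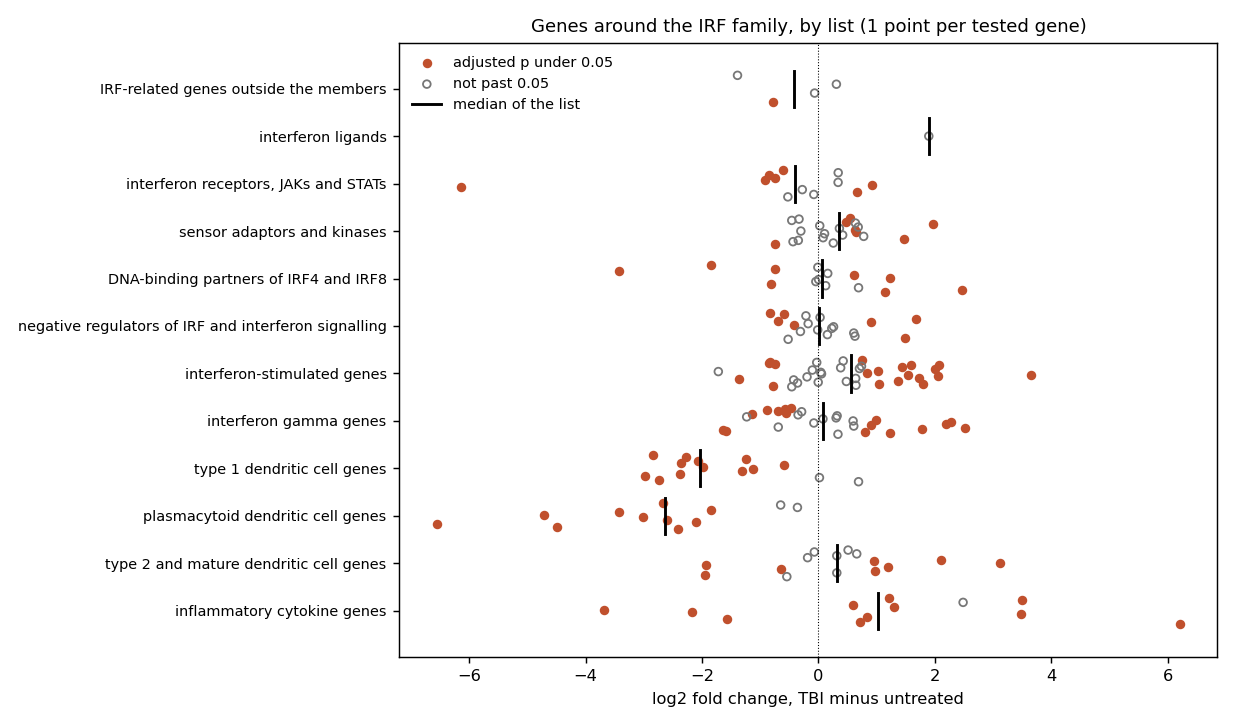
Log2 fold change (x axis, TBI minus untreated) of every tested gene in 12 lists around the family (y axis), filled orange where the edgeR adjusted p was under 0.05, with a black bar at each list's median. Type 1 and plasmacytoid dendritic cell genes sit mostly left of 0 (medians -2.03 and -2.64), interferon-stimulated and interferon gamma genes lie on both sides (medians 0.56 and 0.077), and the far left receptor point, Ifnlr1, rests on 1 TBI count.

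The sort was checked against its defining markers. Ptprc, which encodes CD45, had 1007 and 986 CPM in untreated and 866, 902 and 969 CPM in TBI libraries and was not called, except by library size alone (-0.35, edgeR adjusted p = 0.0480). Itgax, which encodes CD11c, fell from 315 and 309.9 to 155, 216 and 238 CPM (-0.62 ± 0.18, edgeR adjusted p = 0.0417), and did not pass without untreated replicate 1 (0.205), untreated replicate 2 (0.191) or TBI replicate 2 (0.0909). Of the MHC class II genes, H2-Aa fell by 0.47 ± 0.12 (edgeR adjusted p = 0.0235) and H2-Ab1 by 0.60 ± 0.16 (0.0268) on the log2 scale, and neither passed with any of those 3 libraries left out. H2-Eb1 (-0.37 ± 0.16) was not called, except without TBI replicate 1 (-0.53, edgeR adjusted p = 0.00477) and by library size alone (-0.60, 0.0149). The 8 core markers summed to 61770 to 63000 CPM in untreated and 42270 to 60220 CPM in TBI libraries, with 5 lower and none at 0. The lower ones were Itgax, H2-Aa, H2-Ab1, Flt3 and Zbtb46. Flt3 and Zbtb46 are core dendritic cell genes that the sort itself did not use. Lower calls numbered 2 without untreated replicate 1, untreated replicate 2 or TBI replicate 2. Monocyte markers summed to 1454 to 1462 CPM and 2531 to 4466 CPM, with 2 higher, 3 lower and 1 not called of 6 tested. Most of the TBI sum was Fn1 (1464 to 3476 CPM), a gene macrophages also express, while Ly6c2 (-1.30) and Plac8 (-0.76) were among the lower ones. Lower monocyte calls numbered 1 with either untreated library left out. T cell markers summed to 1851 to 2132 CPM and 1420 to 1641 CPM. Stromal and endothelial markers, with Pdgfra at 0 in every library, summed to 138 to 160 CPM and 56.5 to 75.9 CPM, and thymic epithelial markers to 47.6 to 51.0 CPM and 28.2 to 37.3 CPM.

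For each member, the 3 genes with the nearest profile over the 5 libraries were taken by Euclidean distance between log2 CPM centred on the mean of the group means, among 7313 other tested genes whose average log2 CPM reached 4. Irf8 was nearest to Ly75 (distance 0.183), Tlr12 (0.222) and Tcf4 (0.248), a set made of an endocytic receptor of dendritic cells, a Toll-like receptor of type 1 and plasmacytoid cells and the plasmacytoid lineage factor. The genes nearest to Irf2 were Vopp1 (0.109), Rab12 (0.150) and Nkiras2 (0.157). Irf7 had Parp9 (0.0535), itself an interferon-stimulated gene, then Dyrk1a (0.0832) and Rftn1 (0.0899). The low TBI replicate 1 of Irf4 was shared by Arid1b (0.0629), Akna (0.0855) and Atp13a2 (0.0950). Irf1 had Fut8 (0.0349), Brd7 (0.0653) and Trim12a (0.0728), Irf3 had Snapin, Scamp4 and Arl6ip4, Irf5 had Rbmxl1, Grsf1 and Elf2, and Irf9 had Kmt2d, Apobr and Dmap1, at distances of at most 0.103. These distances cover 5 libraries that share depth and group structure, and are a description.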

How the data were processed

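The 5 libraries were made from RNA of sorted cells with a SMART-Seq kit for low input, per the labels. STAR 2.5.2a (mm10) and featureCounts 1.6.0 produced the gene counts, per the submitters' processing notes. Values as deposited by the authors are raw counts per gene symbol, with totals of 7227000 to 8428589 and 0.123 to 0.145 CPM per count. The treatment note names the irradiated samples by another day than titles and tags, whose day 4 was used. In the table, 23 symbols read as dates and stayed in totals and tests.

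The test was that of edgeR 4.0.16 under R 4.3.3 (TMM scaling, filterByExpr with minimum count 10 and total 15, quasi-likelihood F-test, group as the only term, Benjamini-Hochberg over 12046 genes at 0.05). A value after ± is an SE for a log2 fold change and an SD for a CPM level. Unadjusted p was under 0.05 for 4300 genes and 3 members. It was first tested on simulated data. Alternatives included limma-voom (limma 3.58.1), DESeq2 1.42.0 and each library left out. Where leaving out a library left 1 untreated sample, the spread came from TBI samples, which that sample is assumed to share. Lengths came from GENCODE M21 (GRCm38), where 17331 table symbols matched, and promoters from RefSeq, where all 8 members matched. Figures were drawn with matplotlib 3.10.9.

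The members, 12 gene lists and 11 marker lists were chosen with earlier results of these data known. Genes named per list were up to 4 passing genes of smallest p, or the 2 most expressed where none passed, plus the IRF2-binding proteins and the 3 nearest genes per member. Other genes named, such as Isg15, Mx1, Tbk1, Batf3, Stat2, Bst2, Ifngr1, Spi1, Cd24a, Gbp4, Gbp5, the monocyte markers and the sort markers, were chosen after their values were seen. Some genes the rule takes are not reported here.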

Additional observations from a re-analysis of the deposited data

How the results depend on the processing

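Irf8 kept its call and direction in all 14 alternatives. Irf2 kept its call in 13 and lost it without untreated replicate 2. Members called lower numbered 3 by library size alone, and members called higher between 0 and 1 with a library left out. Of the members not called, Irf5 changed sign by library size alone (-0.17), with the replicate block (-0.022) and without TBI replicate 3 (-0.010), and with a library left out it ranged from -0.010 to 0.14. With a library left out, called genes over the whole table ranged from 1233 to 3928, higher calls from 810 to 2148 and lower calls from 423 to 1780, and by library size alone lower calls numbered 2129. The cause was not tested, although an untreated group of 1 has fewer samples. Replicate numbers are shared by the groups in the labels. Deviations of replicate 1 correlated at -0.016 between groups and those of replicate 2 at -0.0099. The deviations of the untreated libraries mirror each other about their mean, so these are not separate checks. Whether replicates were paired cannot be told from them. With the replicate block Irf8 had -2.09 and 2777 genes were called, no member's call changed, and Batf3 (0.81, edgeR adjusted p = 0.0405), the 1 type 1 gene then higher, passed. Under the block Ifng had 1.02, and list medians were 0.074 for sensor adaptors and kinases, 0.0080 for DNA-binding partners and -0.098 for negative regulators, of which 2 were lower. All members had at least 157 counts in every library, and the part of depth in their results was not tested. Low counts limit what can be said of the interferon ligands, at 0 to 107 counts.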
